A study of Mus musculus domesticus with 6 samples.

Results

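Heme synthesis begins and ends in the mitochondrion, and 9 genes of this pathway are described here in mouse erythroid progenitors. They are the enzyme genes Alas2, Alad, Uros, Urod, Cpox, Ppox and Fech and the mitochondrial carrier genes Slc25a37 and Slc25a38, chosen by name and taken in the order of the pathway from 55359 entries in each table. All 9 were found, and 8 had enough reads to be tested, with Alas2 the exception. RNA was sequenced from sorted BFU-E, the earliest progenitors committed to the red cell lineage, taken from fetal livers at E14.5. There were 3 libraries of genotype Exosc3 fl/fl Cre+ and 3 of genotype Exosc3 fl/fl Cre-, and the design text assigns a pair of samples to each of 3 litters. In both groups the alleles of Exosc3 are floxed. Its product belongs to the RNA exosome, a complex that degrades and trims RNA from the 3' end, and the strain label names Vav1-Cre, a transgene that is active across blood cells rather than in erythroid cells alone. The labels describe the sorted cells as GFP+ Lin- Kit+ with the lowest 10% of CD24 and CD71 staining. They do not say that the libraries came from separate cultures or that each is 1 embryo, so p-values measure the spread between these 6 libraries.

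Heme synthesis starts in the mitochondrion, where 5-aminolevulinate synthase joins glycine with succinyl-CoA. ALAS1 is the form found in most tissues and ALAS2 is the erythroid form, which is switched on during red cell maturation. The middle steps take place in the cytosol, and the last steps return to the mitochondrion, where ferrochelatase inserts iron into protoporphyrin. In red cell precursors the pathway is strongly induced as globin production begins.

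A single regulatory sequence is shown, because it belongs to the member whose RNA was at or near 0 here. Alas2 messenger RNA carries an iron-responsive element in its 5' untranslated region, a hairpin that iron regulatory proteins bind to block translation. It was read from GENCODE M21, an annotation of build GRCm38, where Alas2 lies on chromosome X, at bases 84 to 112 of transcript Alas2-201, and the capitals mark the 6-base loop.
Alas2-201 element: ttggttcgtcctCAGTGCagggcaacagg
The pattern of a C, any 5 bases, CAGTG and any base, which covers the bulged C and the loop, was searched on the sense strand of the pathway genes and on both strands of all coding transcripts. Among the pathway genes it occurs in the 5' untranslated regions of both coding Alas2 transcripts and of 2 transcripts each of Fech and Uros, 3 of the 10 pathway genes searched. In the first 126 bases of 31492 coding transcripts with a 5' region at least that long, 4.49% hold the pattern on the sense strand and 4.21% on the other strand, and a match is a description of the letters, not of a site. These shares are per transcript. The 3 genes were counted per gene, with some matching 5' regions shorter than 126 bases, so that count cannot be set against them. The iron regulatory proteins are encoded by Aco1 and Ireb2. Ireb2 averaged 73.6 ± 9.36 CPM in Cre+ and 74.0 ± 13.6 CPM in Cre- libraries, and Aco1 averaged 55.6 ± 13.6 CPM in Cre+ and 51.3 ± 6.38 CPM in Cre- libraries (CPM are counts over the scaled library size; SD, n = 3 each). Neither passed the test (edgeR adjusted p = 0.999 for Ireb2 and 0.993 for Aco1). Per length the 2 groups did not overlap for Aco1, at 28.3 ± 5.34 TPM in Cre+ and 17.0 ± 2.57 TPM in Cre- libraries, where TPM is transcript abundance that the authors scaled for length and library total. The mean transcript length assigned to Aco1 also varied, at 2091, 3832 and 1952 bases in Cre+ libraries and 3832, 3621 and 3832 bases in Cre- libraries. How many of all genes lay apart in TPM was not counted.

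The libraries held 89629949 to 124931215 expected counts. Genes with reads in a single library had a median count of 108 in it, so reads cannot be taken as separate molecules. The rate of duplicate reads was not examined. Exosc3 had 26.8, 22.1 and 30.2 CPM in Cre+ libraries and 51.9, 44.3 and 48.0 CPM in Cre- libraries, so every Cre+ library lay below every Cre- library (edgeR adjusted p = 0.259). Counts per gene do not show which exons the remaining reads cover. Although the labels give a GFP+ sort for all 6 samples, eGFP had 4884, 3311 and 4206 reads in Cre+ libraries and 91, 0 and 197 reads in Cre- libraries. Kit, the marker sorted as positive, stood at 346 ± 10.5 CPM in Cre+ and 395 ± 26.7 CPM in Cre- libraries. Genes of the markers sorted as low had reads too. Cd24a averaged 159 ± 23.9 CPM in Cre+ and 110 ± 32.95 CPM in Cre- libraries. Tfrc, which encodes CD71, averaged 248 ± 89.0 CPM in Cre+ and 241 ± 66.5 CPM in Cre- libraries. Staining measures protein, so these RNA values do not test the sort. Of 9 macrophage markers 7 had no reads in any library, and of 8 hepatocyte markers 5 had none, and the summed level was at most 0.887 CPM for macrophage and 8.35 CPM for hepatocyte markers. All reference names come from GRCm38 tables, while the files use GRCm39, and no coordinates are given for that reason.

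The main result of this pathway was its uneven coverage: the erythroid first enzyme was nearly absent and each of the later enzymes Alad, Uros, Urod, Cpox, Ppox and Fech was present in all 6 libraries. Alas2 had 287, 0 and 239 reads in Cre+ replicates 1, 2 and 3 and 0 reads in each of the 3 Cre- libraries. Per length that was 1.61, 0.00 and 1.48 TPM in the Cre+ libraries. Only 2 libraries held Alas2 reads, both of them Cre+, and Cre+ replicate 2 had none, as in the Cre- libraries. Apex2, which overlaps Alas2 on the other strand, averaged 10.5 ± 7.22 CPM in Cre+ and 10.6 ± 2.18 CPM in Cre- libraries. A count of 0 allows up to 3 reads, or 0.0245 to 0.0335 CPM in the 4 libraries without reads, and this limit covers counting error of reads and not a missed molecule. In the libraries with reads the deposited mean transcript length was 1892 bases, which is the length of the coding transcript Alas2-202 in GENCODE M21. Alas2 did not pass the filter on low counts. With no filter its adjusted p was 0.461 (edgeR), and DESeq2 gave 0.0387, a call that rests on the reads of 2 libraries. DESeq2 called 2.25% of its 13952 tested genes higher and 2.16% lower.

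Alas1, the housekeeping form of the same enzyme, was found in every library. It had 43.3, 49.1 and 54.2 CPM in Cre+ libraries and 54.0, 58.5 and 68.2 CPM in Cre- libraries. The groups overlapped, with Cre+ replicate 3 above Cre- replicate 1, and the log2 fold change was -0.30 with a 95% interval of -0.71 to 0.11 (edgeR adjusted p = 0.813). Alas2 TPM was 4.46%, 0% and 2.87% of Alas1 TPM in the Cre+ libraries and 0% in each Cre- library. The difference in means was 2.44 percentage points, with an exact two-sided permutation p of 0.4 over 20 splits, where the smallest that 3 against 3 libraries can give is 0.1.

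Some other genes of late red cell precursors also had few reads. Slc4a1, which encodes the band 3 anion exchanger of the red cell membrane, had reads in the same 2 Cre+ libraries (111 and 87) and in no other library. The adult beta-globin gene Hbb-bt had 825, 270 and 0 reads in Cre+ libraries and 0 in each Cre- library. The alpha-globin gene Hba-a2 had 2499, 301 and 165 reads in Cre+ libraries and 453, 160 and 312 in Cre- libraries. Cre+ replicate 1 was the highest library for Slc4a1, Hbb-bt and Hba-a2, and the groups overlapped for all 3. The other tested globin genes did not share that order. Hba-a1 had 265, 0 and 234 reads in Cre+ libraries and 208, 194 and 383 in Cre- libraries, with Cre- replicate 3 highest. Hbb-bs had 116, 167 and 249 reads in Cre+ libraries and 174, 196 and 75 in Cre- libraries, with Cre+ replicate 3 highest. Of 7 globin genes matched, 3 were tested and none passed (edgeR; none at an unadjusted p under 0.05), and the near-identical alpha and beta copies share reads, so single globin counts are uncertain. A further gene on the list, Ahsp, had no match by name and was not analysed here.

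**Figure D1:**
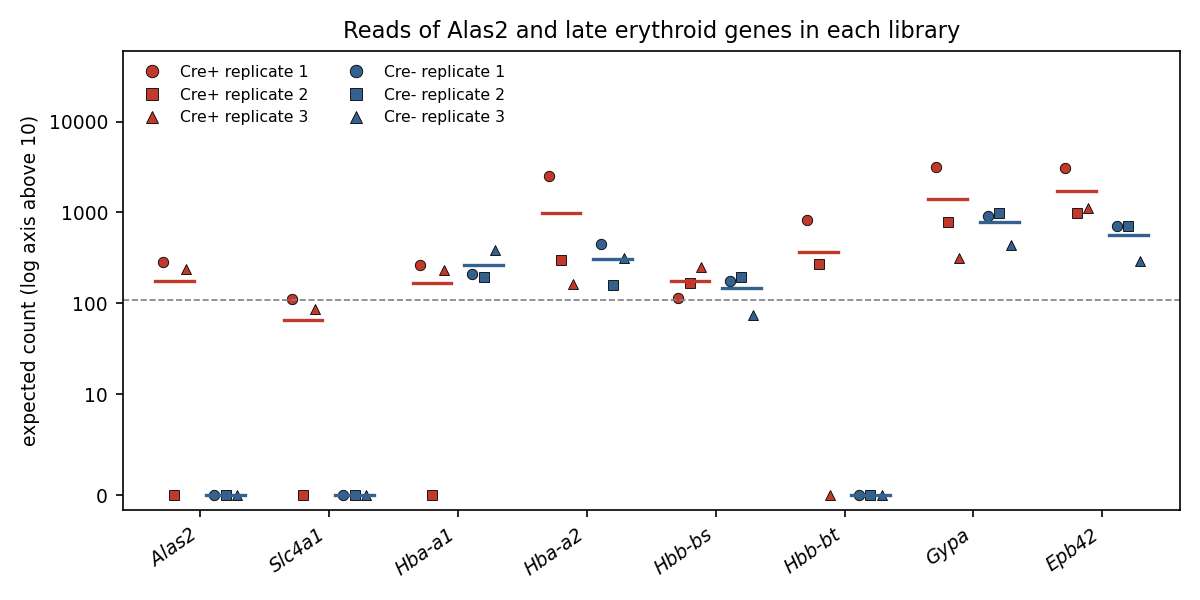
Expected counts (log axis above 10, linear below) of Alas2 and 7 late erythroid genes in 3 Cre+ (red, left) and 3 Cre- libraries (blue, right); bars are group means and the dashed line is 108 reads, the median of genes seen in 1 library only. Alas2 and Slc4a1 have reads in Cre+ replicates 1 and 3 and in no other library.

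Between genes, levels can be compared only per length. Over all 6 libraries Cpox was the most abundant of the enzyme genes described here at 280 ± 66.7 TPM (SD, n = 6), followed by Alad (165 ± 28.7), Urod (146 ± 39.2) and Fech (85.8 ± 16.4). Alas1 stood at 48.7 ± 17.0 TPM. Ppox (22.0 ± 9.68) and Uros (20.8 ± 13.6) followed, and the carriers Slc25a38 and Slc25a37 stood at 26.8 ± 7.14 and 14.3 ± 3.71 TPM. Cpox exceeded Alad, Urod exceeded Fech and Alas1 exceeded Slc25a38 in 6 of 6 libraries, and Fech exceeded Alas1 in 5 of 6, although the ranges of these neighbours overlapped. Alad exceeded Urod in 4 of 6 libraries, Slc25a38 exceeded Ppox in 4 and Ppox exceeded Uros in 4. The place of Uros differed between the groups: it exceeded Slc25a37 in all 3 Cre+ libraries and in 0 of 3 Cre- libraries. In Cre+ libraries Uros averaged 32.2 TPM, above Ppox (27.4) and Slc25a38 (25.9), and in Cre- libraries it averaged 9.45 TPM, below Slc25a37 (14.2) and Ppox (16.6). Every one of these genes exceeded Alas2 in all 6 libraries with no overlap.

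**Figure D2:**
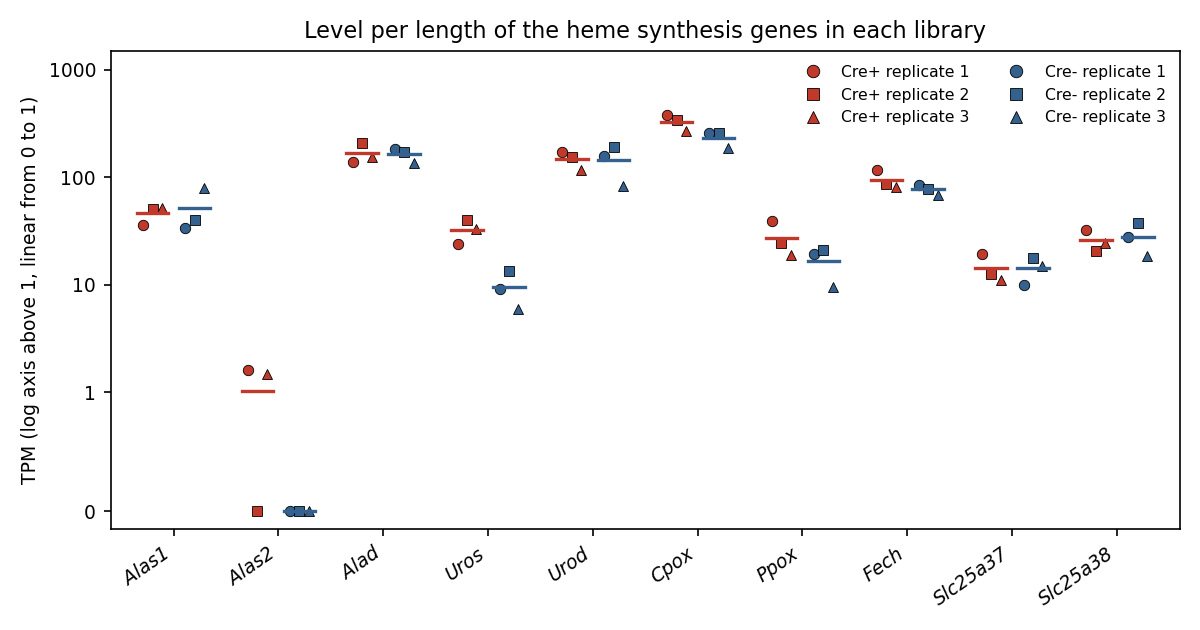
TPM (log axis above 1, linear from 0 to 1) of the heme synthesis genes in pathway order, then the carriers, in 3 Cre+ (red, left) and 3 Cre- libraries (blue, right); points are libraries and bars are group means. Alas2 is at or under 1.61 TPM everywhere, while Cpox lies between 187.71 and 375.02 TPM.

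The comparison of Cre+ with Cre- progenitors asks how the pathway differs between the genotypes. These groups differed in eGFP reads as well as in Exosc3. The separate parts of Exosc3, the Cre transgene and the sort in any difference were not tested. Of 13117 genes tested, 16 (0.122%) were called higher and 0 (0%) lower at an adjusted p under 0.05 (edgeR quasi-likelihood test, Benjamini-Hochberg adjustment over all genes), and before adjustment 531 (4.05%) higher and 549 (4.19%) lower genes had p under 0.05, 8.23% in all. The 16 fell to 8 without Cre+ replicate 1 and to 7 without Cre+ replicate 2. Of the 8 tested members none was called in either direction by this edgeR test, which did not pair libraries. Uros, Cpox, Ppox and Fech had unadjusted p under 0.05 with a higher level in Cre+ libraries, and no member had one with a lower level. For the same 4 genes every Cre+ library lay above every Cre- library in CPM, which held for 7.53% of all tested genes, while 7.66% lay wholly below and 15.2% did either. The median log2 fold change of the 8 members was 0.37, against -0.01 over all tested genes, and 7 of 8 were positive, against 49.2% of all tested genes. The members' median was 0.24 without Cre+ replicate 1, 0.18 on log2(TPM + 1) and 0.20 with effective length offsets. The 9 members were named with earlier results of these data known, so these shares are a description. Bulk RNA was measured, so fewer cells of a type and less RNA per cell cannot be told apart.

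**Figure D3:**
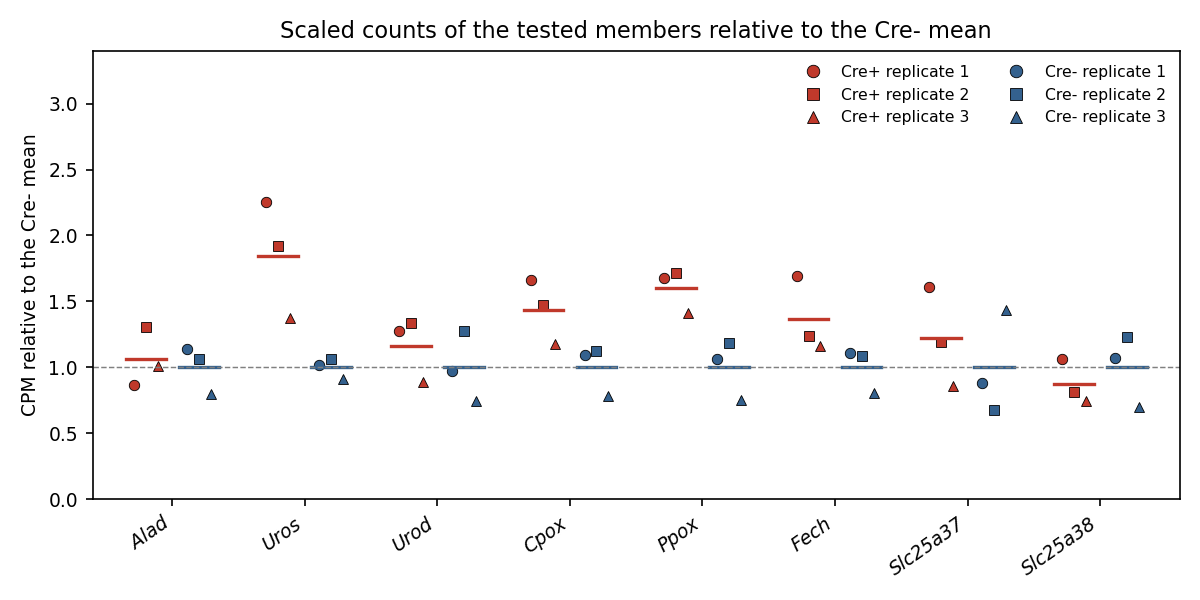
CPM of the 8 tested members divided by the mean of the 3 Cre- libraries, in Cre+ (red, left) and Cre- libraries (blue, right); points are libraries and bars are group means, and the dashed line is 1. For Uros, Cpox, Ppox and Fech all 3 Cre+ points lie above all 3 Cre- points, and Cre- replicate 3 is the lowest library for 7 of the 8 genes.

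The groups overlapped for the first cytosolic enzyme. Alad encodes the enzyme that joins 2 molecules of aminolevulinate into porphobilinogen. It had 113, 171 and 132 CPM in Cre+ libraries and 149, 139 and 105 CPM in Cre- libraries. Cre+ replicate 2 was highest and Cre- replicate 3 lowest, and the log2 fold change was 0.08 with a 95% interval of -0.33 to 0.49. Its sign turned without Cre+ replicate 2 (-0.094) and without Cre- replicate 3 (-0.055).

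Uros, which encodes the synthase that closes the chain into the uroporphyrinogen ring, had the largest fold of the tested members. It had 20.7, 17.7 and 12.6 CPM in Cre+ libraries and 9.41, 9.82 and 8.40 CPM in Cre- libraries. The lowest Cre+ library was thus above the highest Cre- library, and the Cre- libraries lay close together. The means were 17.0 ± 4.09 and 9.21 ± 0.727 CPM (SD, n = 3 each), and the fitted log2 fold change was 0.89, standard error 0.39 (edgeR adjusted p = 0.591). Per length the contrast was wider: Uros had 23.9, 39.7 and 32.9 TPM in Cre+ libraries and 9.16, 13.3 and 5.90 TPM in Cre- libraries. With effective length offsets the log2 fold change was 1.79 (edgeR adjusted p = 0.393), and on log2(TPM + 1) it was 1.70 (limma adjusted p = 0.299).

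The wider contrast of Uros in TPM comes with a difference in the transcript length that RSEM assigned. The mean Uros length was 1270, 794 and 747 bases in Cre+ libraries and 1483, 1143 and 1986 bases in Cre- libraries, and these groups overlapped. The means were 937 ± 290 and 1537 ± 424 bases (SD, n = 3 each), with an exact two-sided permutation p of 0.2 and 0.8 after adjustment over 8 members. GENCODE M21 lists 10 Uros transcripts of 323 to 2189 bases, the longest of them with a retained intron, and the 906 to 2574 reads of Uros in a library limit how well its isoform proportions can be estimated. Bccip overlaps Uros on the other strand, and the strand setting of the counting is not given in the sources used here. Bccip itself averaged 70.8 ± 5.08 CPM in Cre+ and 70.5 ± 1.47 CPM in Cre- libraries (log2 fold change 95% interval -0.32 to 0.33).

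**Figure D4:**
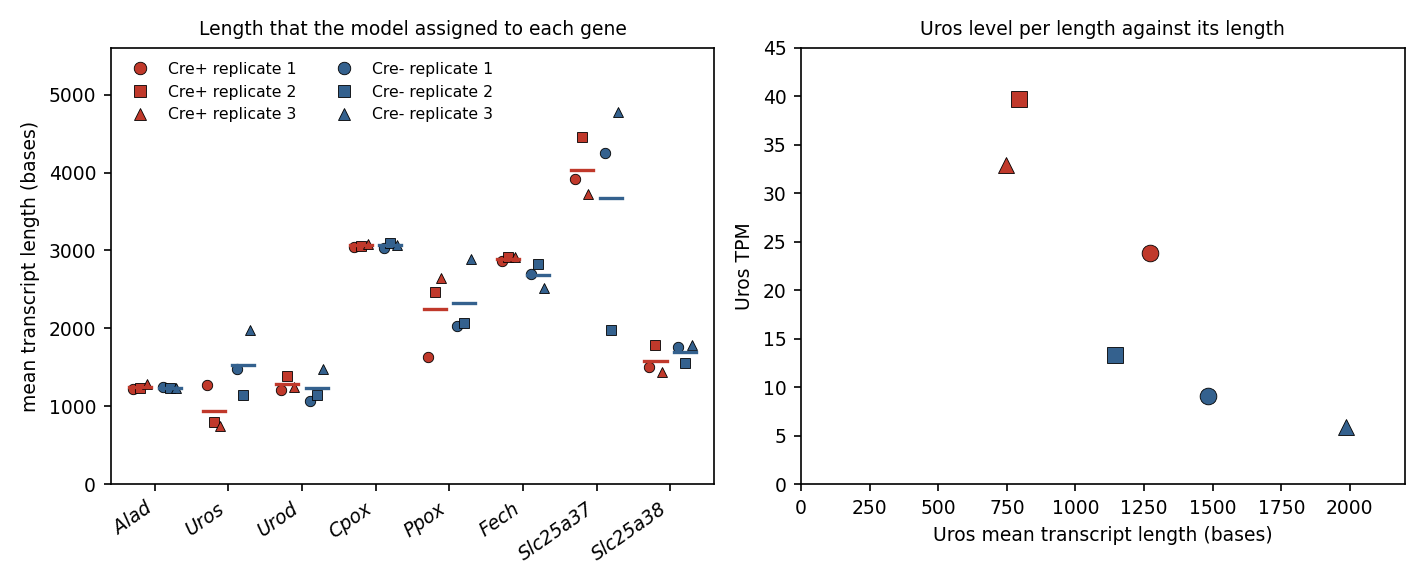
Left, mean transcript length in bases that RSEM assigned to each tested member in Cre+ (red, left) and Cre- libraries (blue, right), with bars at group means; right, Uros TPM against Uros mean length with 1 point per library. TPM divides by length, so these axes are not independent; the 3 Cre+ libraries lie between 23.88 and 39.74 TPM and the 3 Cre- libraries between 5.90 and 13.30 TPM.

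Urod, whose product trims the ring to coproporphyrinogen, overlapped between groups. It had 139, 146 and 96.9 CPM in Cre+ libraries and 106, 140 and 81.8 CPM in Cre- libraries. Replicate 3 was the lowest library in each group, and the log2 fold change was 0.22 with a 95% interval of -0.27 to 0.71 (edgeR adjusted p = 0.941).

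Cpox, the mitochondrial oxidase that makes protoporphyrinogen, was the member with the smallest p. It had 935, 829 and 663 CPM in Cre+ libraries and 616, 632 and 443 CPM in Cre- libraries. All 3 Cre+ libraries were higher, but the gap between Cre+ replicate 3 and Cre- replicate 2 was small beside the spread within each group. The means were 809 ± 137 and 564 ± 105 CPM (SD, n = 3 each), a log2 fold change of 0.52, standard error 0.16, and a 95% interval of 0.17 to 0.87. Over all genes it did not pass (unadjusted p = 0.0081, adjusted p = 0.322, edgeR). Its mean length varied little, from 3032 to 3090 bases, and the groups stayed apart per length at 375, 338 and 268 TPM in Cre+ libraries and 256, 256 and 188 TPM in Cre- libraries. Gpr15, which overlaps Cpox on the other strand, had no reads in any library.

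Ppox, which encodes the oxidase that forms protoporphyrin, had 46.4, 47.3 and 39.0 CPM in Cre+ libraries and 29.3, 32.8 and 20.7 CPM in Cre- libraries. The groups did not overlap in CPM, and the log2 fold change was 0.68, standard error 0.24 (edgeR adjusted p = 0.466). Per length they did overlap, at 38.9, 24.6 and 18.8 TPM in Cre+ libraries and 19.3, 21.0 and 9.43 TPM in Cre- libraries. The longest coding Ppox transcript in GENCODE M21 has 1821 bases and 5 of its 8 transcripts retain an intron. The mean Ppox length exceeded that coding length in 2 of 3 Cre+ and 3 of 3 Cre- libraries. B4galt3, which overlaps Ppox on the other strand, averaged 20.9 ± 7.24 CPM in Cre+ and 19.2 ± 5.62 CPM in Cre- libraries.

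Fech encodes ferrochelatase, the last enzyme, which inserts iron into the ring. It had 272, 200 and 187 CPM in Cre+ libraries and 179, 175 and 129 CPM in Cre- libraries. The groups were apart by a narrow margin, and Cre+ replicate 1 stood well above the rest. The log2 fold change was 0.45, standard error 0.17 (edgeR adjusted p = 0.519), and it was 0.27 without Cre+ replicate 1. Per length the groups overlapped, at 117, 86.0 and 80.8 TPM in Cre+ libraries and 84.3, 78.2 and 68.7 TPM in Cre- libraries. Its mean length was 2897 ± 28.5 bases in Cre+ and 2683 ± 155 bases in Cre- libraries, every Cre+ library above every Cre- library (exact two-sided permutation p = 0.1, the smallest possible, and 0.8 adjusted over 8 members).

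The mitochondrial carriers showed no separation of the groups. Slc25a37 encodes mitoferrin 1, which brings iron into the mitochondria of erythroid cells. It had 63.3, 46.9 and 34.0 CPM in Cre+ libraries and 34.7, 26.8 and 56.6 CPM in Cre- libraries. High and low libraries occurred in both groups, and the 95% interval of the log2 fold change (0.29) ran from -0.43 to 1.01. With effective length offsets the fold change was 0.05. Slc25a38, which encodes a glycine carrier that supplies the first step, had 35.1, 26.8 and 24.5 CPM in Cre+ libraries and 35.3, 40.5 and 23.0 CPM in Cre- libraries. It was the tested member with a negative log2 fold change, -0.19, with a 95% interval of -0.84 to 0.45. For both carriers the intervals allow a change in either direction.

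Other genes of the heme pathway were examined as a list of 23 that supply, move or break down heme and its precursors. Of these 22 were tested, none passed in either direction (edgeR; 0 at an unadjusted p under 0.05) and the groups overlapped in CPM for all 22. Per length they did not overlap for Blvra, a biliverdin reductase gene, at 32.2 ± 4.32 TPM in Cre+ and 23.4 ± 3.53 TPM in Cre- libraries. No share of all genes apart in TPM was counted to set beside it. The median log2 fold change was 0.16, with 15 positive. The smallest p belonged to Abcb6, a porphyrin transporter, at 43.5, 26.9 and 16.7 CPM in Cre+ libraries and 14.3, 21.3 and 12.9 CPM in Cre- libraries (log2 fold change 0.85, 95% interval -0.04 to 1.74). Glrx5, which serves iron-sulfur cluster assembly, had a log2 fold change of 0.28, and Slc25a28, the widely expressed relative of mitoferrin 1, had -0.02. Hmox1, the inducible heme oxygenase, had 40 reads in Cre- replicate 3 and none elsewhere, while Hmox2, the constitutive form, averaged 40.7 ± 7.27 CPM in Cre+ and 49.0 ± 2.98 CPM in Cre- libraries.

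Regulators of heme genes were a list of 13, of which 11 were tested and none passed (edgeR). At an unadjusted p under 0.05, 1 of the 11 was higher, against 4.05% of all tested genes. Zfpm1, the GATA1 partner FOG1, was that gene, at 676, 582 and 536 CPM in Cre+ libraries and 520, 510 and 399 CPM in Cre- libraries (log2 fold change 0.33, standard error 0.12, adjusted p = 0.505). Bach1, a heme-binding repressor, had 21.1, 36.8 and 49.8 CPM in Cre+ libraries and 57.5, 48.8 and 61.1 CPM in Cre- libraries, which overlapped (log2 fold change -0.64, adjusted p = 0.639). Per length Bach1 did not overlap, at 5.49, 9.90 and 10.0 TPM in Cre+ libraries and 14.3, 26.8 and 24.9 TPM in Cre- libraries. TPM divides by the assigned length, which also varied. The mean Bach1 length was 4520, 4461 and 5858 bases in Cre+ libraries and 4845, 2362 and 3182 bases in Cre- libraries. Beside Aco1, the erythroid factor gene Nfe2 was also apart in TPM alone, at 86.5 ± 3.97 TPM in Cre+ and 70.5 ± 8.04 TPM in Cre- libraries (SD, n = 3 each). For Bach1, Aco1 and Nfe2 too, the share of all genes apart in TPM was not counted. Klf1, an erythroid activator, had a log2 fold change of 0.27 (95% interval -0.06 to 0.60). Gata1 averaged 104 ± 2.84 CPM in Cre+ and 99.5 ± 25.0 CPM in Cre- libraries. The list median was 0.07.

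**Figure D5:**
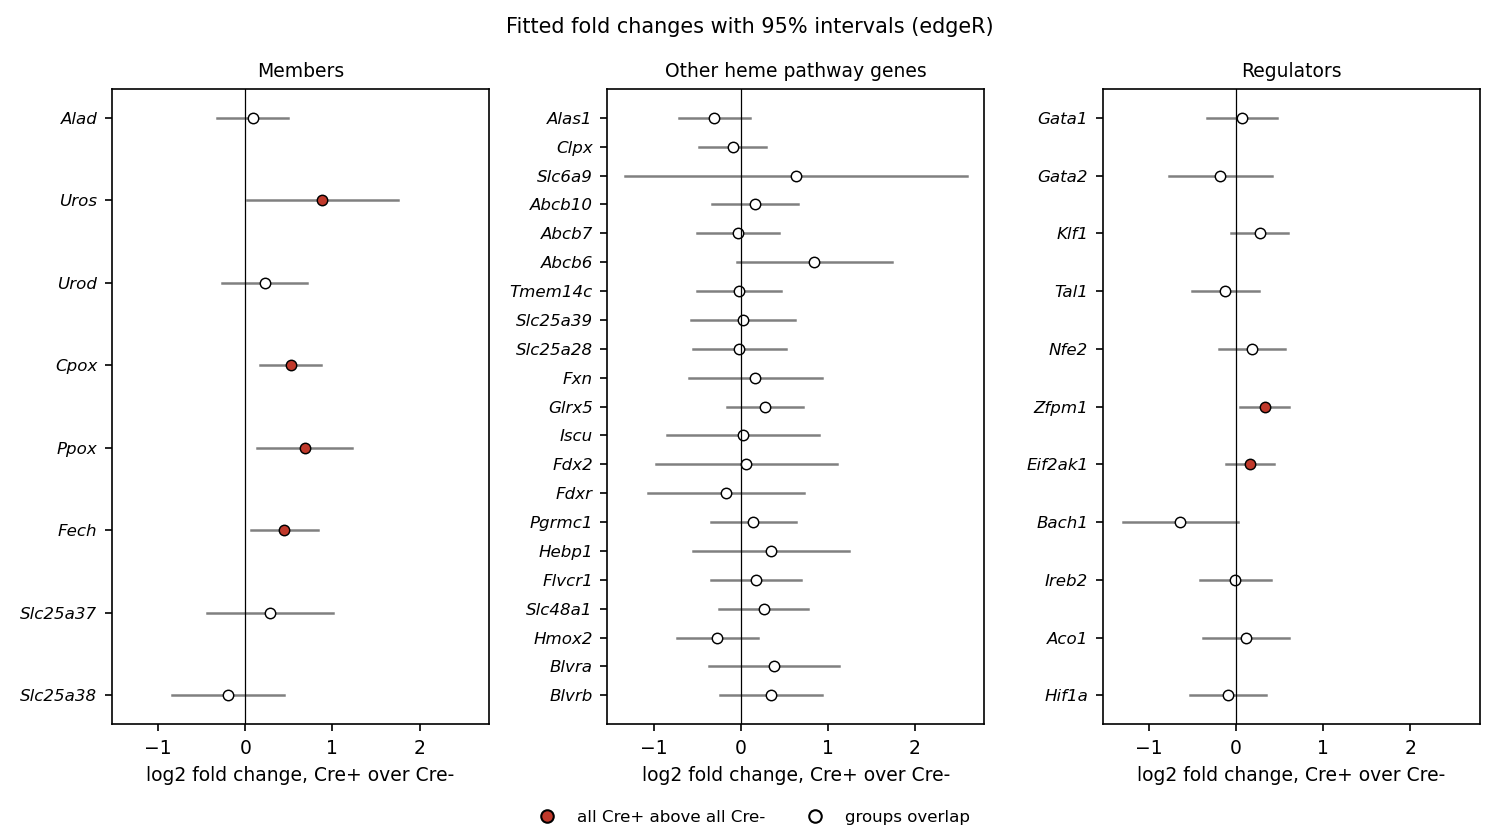
log2 fold changes, Cre+ over Cre-, with 95% intervals from the edgeR fit for the 8 tested members, 21 of the 22 other heme pathway genes tested and 11 regulators; filled points mark genes whose 3 Cre+ libraries all lie above the 3 Cre- libraries in CPM. Uros, Cpox, Ppox and Fech are filled among the members, none of the other pathway genes plotted is, and Zfpm1 and Eif2ak1 are among the regulators. Of all tested genes 7.53% would be filled by this rule.

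Markers of erythroid stage and of other blood cells were measured in the same libraries. Of 11 tested stage and sort markers Car2, carbonic anhydrase 2, rose (538, 503 and 408 CPM in Cre+ libraries against 239, 236 and 205 CPM in Cre- libraries, edgeR adjusted p = 0.00787). Its log2 fold change of 1.09 was 1.01 without Cre+ replicate 1, 1.06 without Cre+ replicate 2 and 1.10 with effective length offsets, where the adjusted p was 0.0595, 0.085 and 0.0515 (edgeR). On log2(TPM + 1) and log2(TPM + 0.1) its adjusted p was 0.0692 and 0.0915 (limma). For 5 of the 11 every Cre+ library was above every Cre- library, against 7.53% of all tested genes. Kit, the receptor used in the sort, was the 1 marker wholly below, at 334, 349 and 355 CPM in Cre+ libraries and 375, 385 and 426 CPM in Cre- libraries (log2 fold change -0.19, edgeR adjusted p = 0.614). Summed over 11 neutrophil and monocyte markers, 3 of them at 0 in every library, the level was 232 to 519 CPM in Cre+ and 569 to 1486 CPM in Cre- libraries. Most of that sum was Mpo, the neutrophil granule peroxidase, at 226, 209 and 481 CPM in Cre+ libraries and 859, 512 and 1365 CPM in Cre- libraries. Of the 7 tested, 4 had all Cre+ libraries below all Cre- libraries, against 7.66% of all tested genes, 3 overlapped and none passed. Of 10 lymphoid markers 3 were at 0 in every library. The summed level of the 10 was 1.59 to 10.6 CPM in Cre+ and 41.4 to 136 CPM in Cre- libraries. Of the 6 tested, 4 had all Cre+ libraries below all Cre- libraries, 2 overlapped and none passed. Cre- replicate 3, the lowest library for every tested heme member but Slc25a37, had the most Mpo. Megakaryocyte markers summed to 50.3 to 90.6 CPM in Cre+ and 41.6 to 78.2 CPM in Cre- libraries, and mast cell and basophil markers to 2.25 to 5.33 CPM in Cre+ and 0.665 to 9.46 CPM in Cre- libraries, and none passed. The part of these other cells in the differences of the heme genes was not tested.

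By Pearson correlation of log2 CPM over the 6 libraries, the genes most like Alas2 among 8330 with a mean of at least 1000 counts were Cdkn2aipnl (r = 0.984), Bcl7b (0.982) and Unc45a (0.976). Alas2 is above 0 in 2 libraries only, so these values describe genes that were highest in Cre+ replicates 1 and 3.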

How the data were processed

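Total RNA from 6 samples of sorted BFU-E was sequenced after RNeasy Micro extraction and SMARTer Stranded Total RNA-Seq Pico preparation, per the labels. STAR 2.5.3a, RSEM 1.3.0 and build GRCm39 (mm39) are named in the submitters' processing notes. Which annotation release and which strand setting were used is not given in the sources used here. Per the file headers, the authors' tables give an expected count, TPM and a mean and effective transcript length for each gene. The deposited expected counts (2.64% not whole) were rounded. Of 55359 entries 52081 matched a symbol; Fdx2 was matched through a RefSeq synonym.

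Cre+ was tested against Cre- with edgeR 4.0.16 (filterByExpr, TMM factors 0.988 to 1.017, glmQLFTest; R 4.3.3). P-values of 13117 genes were adjusted by Benjamini-Hochberg, with a threshold of 0.05. Standard errors are the log2 fold change over the square root of F, and intervals are 95%. Alternatives used DESeq2 1.42.0, limma 3.58.1 (voom, or log2 of TPM plus 1 or 0.1 for genes with a mean of at least 1 TPM), other scalings, filters and length offsets, and left out each library. The tests were checked on simulated data. The Alas2 to Alas1 ratio was permuted on a linear scale, since 4 libraries are at 0, in place of the log scale planned.

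All 9 members are named, with counts for each companion list, the 3 members of smallest p where named, and any gene of the other heme pathway and globin lists. Some genes of these lists are counted with their list and not reported here by name. Slc4a1, Eif2ak1, Kit, Gata1, Nfe2, Ireb2, Aco1 and the overlapping genes were named after their values were seen. The members and lists were chosen with earlier results of these data known.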

Additional observations from a re-analysis of the deposited data

How the results depend on the processing

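The count of all genes called higher in Cre+ was 16, and 33 with no filter on low counts, 58 where the mean count had to reach 1000, 314 by DESeq2, 6 with effective length offsets, 8 on log2(TPM + 1), 4 on log2(TPM + 0.1) and 7 to 15 without each library in turn. The count called lower was 0, and 6 with no filter, 26 where the mean count had to reach 1000, 302 by DESeq2 and 0 to 3 without each library. Of the heme genes DESeq2 called 1 (Alas2). The cause of these shifts was not tested. Members with all Cre+ libraries above all Cre- libraries numbered 4 in CPM and 2 (Uros and Cpox) in TPM or in scaled counts over effective length, alternatives chosen after seeing the data. The share of all genes that lay apart on those 2 scales was not counted, so the 2 members have no share beside them. Alad reversed to -0.094 without Cre+ replicate 2 and to -0.055 without Cre- replicate 3, with 0.21 the highest value without a library. The other 7 tested members kept their direction in all 17 alternatives, with Cpox between 0.37 and 0.65. The median of the members ran from 0.18 to 0.53, and the Alas2 to Alas1 difference from 1.43 to 3.66 percentage points.

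A fit that took replicate numbers as a block called 38 genes higher and 18 lower (edgeR), and 1 heme gene, Cpox (log2 fold change 0.53, adjusted p = 0.0357; lowest 0.0357 and highest 0.639 among its alternatives). Deviations of same-numbered libraries correlated at 0.026, 0.049 and 0.070 across genes. Each was the highest for its number, a hint from the data, but under 0.1. The design text gives 2 samples to each of 3 litters but does not tie replicate numbers to litters, and they were not treated as pairs. Low read counts limit Alas2, Slc4a1, Hmox1 and the globins.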
